A study of Homo sapiens with 9 samples.

Results

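The genes encoding the subunits of Mediator, a complex that works with RNA polymerase II, were followed by structural module (head, middle, tail and kinase) in A549 cells in which MED23 or ELK1 had been knocked down. They were chosen by name, as a list of 33 genes that includes the paralogs of the kinase module. Each gene was read from the probe set with the highest mean log2(signal + 1) over 9 arrays among those annotated to exactly 1 gene. A probe set of that kind was found for 31 of the 33, out of 19775 genes on the arrays, and 30 of these lay among the 12616 genes bright enough to be tested. MED6 and MED25 were not analysed here. MED24 had a dim probe set and was not tested, with group means of 5.69, 4.45 and 4.69 in si-Med23, si-Elk1 and si-Ctrl on the log2 scale. The measured genes were 6 head, 9 middle, 8 tail and 7 kinase module genes and MED14, which runs through the core as its backbone. MED27, MED28, MED29 and MED30 were counted with the tail.

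A549 is a human lung adenocarcinoma line. The groups were si-Med23, in which MED23 was targeted by RNA interference oligos A, B and C, si-Elk1, in which ELK1 was targeted by its own oligos A, B and C, and si-Ctrl, 3 samples with a control oligo, and all cells were kept in Dulbecco's modified Eagle's medium with serum and no other treatment. Each group had 3 arrays, whose number limits the precision, and the replicates of a knockdown are 3 different oligos, described by the submitters as separate cell lines, so their spread includes that between oligos. Since no label describes the control samples as separate cultures, the p-values cover the spread between these particular samples, and that spread may be technical.

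Mediator passes signals from DNA-bound transcription factors to RNA polymerase II. Its head and middle contact the polymerase, its tail is the main docking surface for transcription factors, and MED14 ties these modules together. A separate kinase module, made of CDK8 or CDK19 with cyclin C, MED12 and MED13 or their paralogs, binds the core reversibly, and when bound it blocks the contact with the polymerase. MED23 is the tail subunit through which ELK1, an ETS factor phosphorylated by ERK, reaches Mediator.

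Values below are log2(signal + 1) from 1 probe set per gene, and fold changes are differences of group means on that scale, given with their standard error (SE) for n = 3 arrays per group. A gene was called where its limma adjusted p, taken over all 12616 genes of a comparison, was under 0.05. The deposited signals had been brought to a common 2% trimmed mean of 500.1 on every array, which hides a change in total messenger RNA. The control probe sets give other scalings, and they would shift every log2 fold change of si-Med23 against si-Ctrl by -1.61 (poly-A spikes) or -0.50 (hybridization controls), that of si-Elk1 against si-Ctrl by -0.64 or -0.18, and that of si-Med23 against si-Elk1 by -0.97 or -0.32. Centring each array on its median would shift the same comparisons by 0.23, -0.13 and 0.37. The 18S rRNA probe sets, a sign of RNA composition, gave means of 8.39 to 9.03 on the si-Med23 arrays, 7.79 to 8.24 on the si-Elk1 arrays and 7.58 to 8.11 on the si-Ctrl arrays on the log2 scale. The si-Med23 arrays lay above all others, and the part of 18S rRNA in the results was not tested. Directions below are those of the deposited scaling, and whether the spikes or the deposited scaling reflects the cells was not tested. In bulk RNA, fewer cells of a type and less RNA per cell cannot be told apart.

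The labelled cell type was checked on 9 A549 epithelial and metabolic genes, of which all 9 passed the brightness filter, with group means between 9.76 (KRT19, si-Elk1) and 15.67 (AKR1B10, si-Med23). With the deposited scaling 7 of the 9 were higher in si-Med23 than in si-Ctrl (77.8%, against 20.3% of all genes) and 0 lower, with a median log2 fold change of 0.53, a direction that the poly-A spike shift turns. In si-Elk1 only CDH1 was higher than in si-Ctrl, and without si-Elk1 oligo C limma called 0 of the 9, among 2.10% of all genes. Of the defining markers of other cells, PTPRC, VWF and CDH5 lay below that filter, at group means of 4.80 or less. Of the 3 blood cell and 2 endothelial markers past the filter, CD14 was higher in both knockdowns, at 9.33 in si-Med23 and 9.45 in si-Elk1 against 7.68 in si-Ctrl, and CD3E, CD79A, PECAM1 and ROBO4 did not pass against si-Ctrl. CD3E was lower in si-Med23 than in si-Elk1, at 4.94 against 7.43 (limma adjusted p = 0.0365), and the other 4 did not pass in that comparison. The part of these markers in the Mediator results was not tested.

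The si-Elk1 oligo C array stood apart from its group. It correlated with the oligo A and B arrays at r = 0.915 and 0.918 over the probe sets, while A and B correlated at 0.929 with each other and arrays within si-Med23 and si-Ctrl at 0.924 to 0.930. Among the subunits, oligo C lay below the mean of A and B by 0.94 for MED14, 0.83 for MED13L, 0.80 for MED1 and CDK19, 0.78 for MED13 and 0.76 for MED23, and it lay above that mean by 0.65 for MED30, 0.59 for MED10 and 0.44 for MED18. Of the 18 subunit genes called in si-Med23 against si-Ctrl, 16 deviated on the oligo C array in the direction of their si-Med23 change (88.9%), against 4364 of the 5023 genes called among all genes (86.9%). For si-Elk1 against si-Ctrl, counts of called subunit genes and module medians are therefore given with and without this array. So are the si-Elk1 values of the subunit genes described, for their chosen probe sets.

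Setting si-Med23 against si-Ctrl asks which subunit transcripts changed when a tail subunit was reduced. Of the 7 kinase module genes 4 fell in si-Med23 and 1 rose, while of the 6 tail genes other than MED23 4 rose and none fell with the deposited scaling, although the median of these 6 was negative with hybridization control and poly-A spike scaling. In all, 18 of 30 subunit genes passed (60%), in a comparison that called 39.8% of all genes. Of these, 9 rose and 9 fell, or 30% of the subunit genes in each direction, against 20.3% of all genes higher and 19.5% lower. The median log2 fold change of the 30 genes was 0.067, beside 0.091 for all genes tested. For 22 of the 30 no si-Med23 array reached the range of the si-Ctrl arrays, where 57.3% of all genes were without overlap. These were 11 higher and 11 lower, against 31.7% of all genes higher and 25.6% lower without overlap. Without the targeted MED23, 17 of 29 passed (58.6%), 9 higher and 8 lower (31.0% and 27.6%), and 21 were without overlap. The count of calls depended on single arrays, as did that over all genes. It was 10 without si-Ctrl replicate 3, among 25.2% of all genes, and 11 without si-Med23 oligo B, among 29.8%. Of the 18 genes, 9 (MED4, MED9, MED13, MED13L, MED16, MED18, MED23, CDK8 and CCNC) stayed called whichever array was left out.

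**Figure D1:**
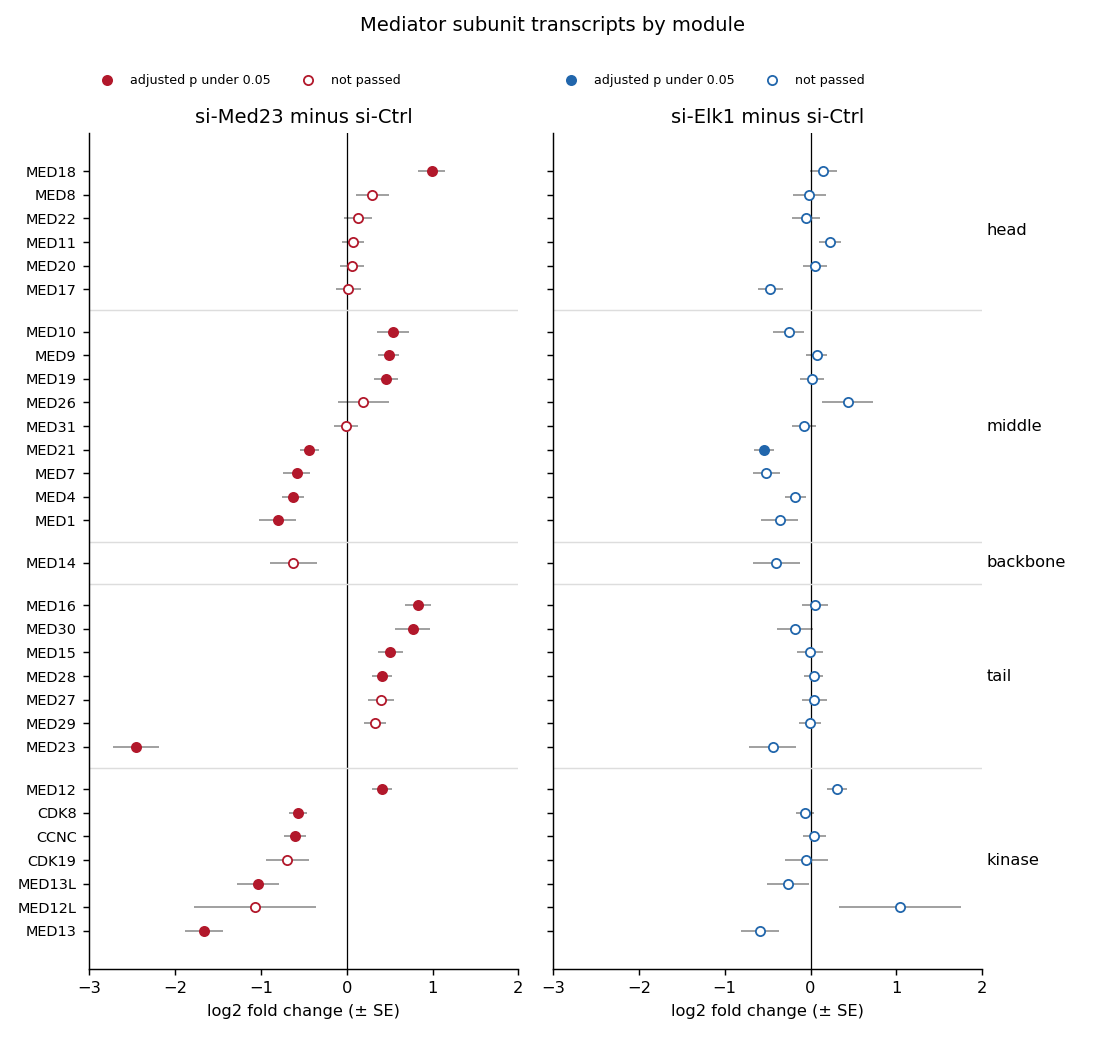
Log2 fold change (± SE, n = 3 arrays per group) of the 30 Mediator subunit genes tested, for si-Med23 minus si-Ctrl on the left and si-Elk1 minus si-Ctrl on the right, ordered by module, with filled points where the limma adjusted p was under 0.05 on the deposited scaling. In si-Med23 there are 18 filled points, from -2.46 for MED23 to 0.99 for MED18, and in si-Elk1 only MED21 is filled, at -0.54.

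The targeted gene was examined first. MED23 gave 6.79, 6.19 and 7.06 with si-Med23 oligos A, B and C, against 9.27, 9.05 and 9.08 in si-Ctrl. Every si-Med23 array lay below every control array, and oligo B was the lowest. The log2 fold change was -2.46 ± 0.27 (limma adjusted p = 0.00184), which left 18.2% of the control signal, and it stayed negative and called under every scaling.

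Tail genes other than MED23 were the group with the highest median. All 6 tested had a positive log2 fold change with the deposited scaling, between 0.33 and 0.83, and 4 of the 6 rose (MED15, MED16, MED28 and MED30). Their median of 0.46 was 0.54 after quantile normalization and 0.69 after median centring, but -0.040 with hybridization control scaling and -1.15 with poly-A spike scaling, so the direction flips with the last 2.

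MED16, a tail subunit through which the factor NRF2 works, gave 10.06, 10.05 and 9.81 in si-Med23, against 9.27, 9.13 and 9.02 in si-Ctrl. All 3 knockdown arrays were higher than all controls, with a log2 fold change of 0.83 ± 0.15 (limma adjusted p = 0.00505), and this call held without any single array. MED30, a subunit found in animals and not in yeast, gave 10.39, 10.27 and 10.17 in si-Med23, against 9.29, 9.57 and 9.67 in si-Ctrl. Its groups did not overlap either, and the log2 fold change was 0.77 ± 0.21 (adjusted p = 0.0196). MED15, which binds SREBP and SMAD factors, gave 8.95, 9.08 and 9.01 in si-Med23, against 8.74, 8.39 and 8.39 in si-Ctrl. Control replicate 1 was the closest to the knockdown arrays, and the log2 fold change was 0.51 ± 0.15 (adjusted p = 0.0257).

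MED28, a metazoan subunit that also binds the actin-linked protein merlin, gave 10.26, 10.22 and 10.27 in si-Med23, against 9.92, 9.83 and 9.79 in si-Ctrl. The spread within each group was small and the log2 fold change was 0.41 ± 0.11 (adjusted p = 0.0222). Of 5 other MED28 probe sets above the filter, however, only 2 had the same sign, and they ranged from -0.62 to 0.53. MED27 gave 11.65, 11.45 and 11.68 in si-Med23, against 11.28, 11.21 and 11.09 in si-Ctrl, and MED29 gave 10.99, 11.04 and 11.13, against 10.89, 10.69 and 10.60. Neither overlapped its controls and neither passed, with adjusted p = 0.0583 and 0.0666. The calls for MED15, MED28 and MED30 were each lost without 3 or 4 of the arrays, among them si-Ctrl replicate 3 for MED15 and MED28 and si-Ctrl replicate 1 for MED30, with adjusted p-values up to 0.0903.

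**Figure D2:**
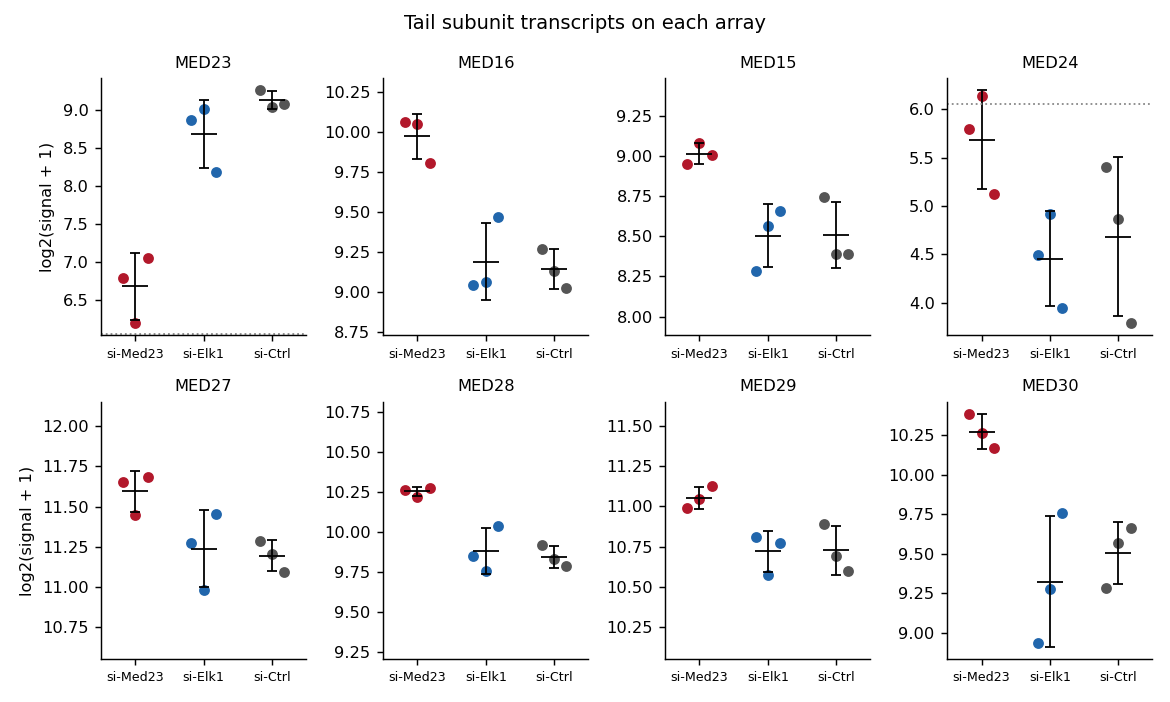
Log2(signal + 1) of the 8 measured tail subunit genes on each array, with si-Med23, si-Elk1 and si-Ctrl from left to right, points for arrays, bars for the mean ± SD (n = 3) and a dotted line at the brightness filter of 6.05 where it falls in range. The si-Med23 arrays lie below the controls for MED23 and above all controls for MED15, MED16, MED27, MED28, MED29 and MED30 on the deposited scaling, a direction of the means that poly-A spike scaling reverses for these 6.

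Kinase module genes had the lowest median of the modules. Of the 7, MED13, MED13L, CDK8 and CCNC fell and MED12 rose, while CDK19 and MED12L did not pass. The median log2 fold change was -0.69, and it was negative under each scaling, at -0.65 after quantile normalization, -0.46 after median centring, -1.19 with hybridization control scaling and -2.30 with poly-A spike scaling. The calls of MED13, MED13L, CDK8 and CCNC also held without any single array and under all 4 scalings, but with its probe sets averaged MED13L did not pass, at -0.52 (limma adjusted p = 0.0859). Of the scalings, those on control probe sets shift every value of this comparison lower.

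MED13, the subunit that joins the kinase module to the core, gave 8.71, 8.89 and 8.71 in si-Med23, against 10.40, 10.23 and 10.66 in si-Ctrl. The knockdown arrays were far below all controls and close to each other, with a log2 fold change of -1.67 ± 0.22 (limma adjusted p = 0.00227), or 31.5% of the control signal. Another bright MED13 probe set had -1.98 and a further one -0.21. MED13L, its paralog, gave 9.72, 9.48 and 9.06, against 10.40, 10.50 and 10.46 in si-Ctrl. Oligo C was the lowest of the 3 and no array overlapped the controls, with a log2 fold change of -1.03 ± 0.25 (adjusted p = 0.0126). Of 4 other MED13L probe sets, 3 were lower without overlap and the other had 0.84 with overlapping groups.

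CDK8, the kinase of the module, gave 10.09, 9.93 and 10.01 in si-Med23, against 10.60, 10.60 and 10.55 in si-Ctrl. Its groups were tight and separate, with a log2 fold change of -0.57 ± 0.10 (limma adjusted p = 0.00492), and 2 other CDK8 probe sets were lower without overlap, at -0.51 and -0.93. CCNC, which encodes the cyclin that activates CDK8 and CDK19, gave 11.67, 11.35 and 11.75, against 12.14, 12.22 and 12.22 in si-Ctrl. Oligo B was the lowest, all 3 lay below the controls, and the log2 fold change was -0.60 ± 0.13 (adjusted p = 0.00926). CDK19, the CDK8 paralog, gave 8.10, 8.55 and 8.77, against 9.13, 9.22 and 9.14 in si-Ctrl. Its groups did not overlap, but oligo A lay far below oligo C and the log2 fold change of -0.69 ± 0.25 did not pass (adjusted p = 0.054).

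MED12, which switches on the kinase activity of CDK8, gave 8.59, 8.75 and 8.55 in si-Med23, against 8.08, 8.31 and 8.27 in si-Ctrl. These values do not overlap and gave 0.41 ± 0.12 (limma adjusted p = 0.0222), but 2 other MED12 probe sets above the filter had -0.055 and 0.21 with overlapping groups. With hybridization control scaling MED12 had -0.083, and leaving out si-Ctrl replicate 1 or 3 or si-Med23 oligo B ended the call, at adjusted p up to 0.0860. Its paralog MED12L was dim and uneven, at 5.66, 3.25 and 6.43 in si-Med23, against 6.86, 6.14 and 5.55 in si-Ctrl, with adjusted p = 0.252.

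**Figure D3:**
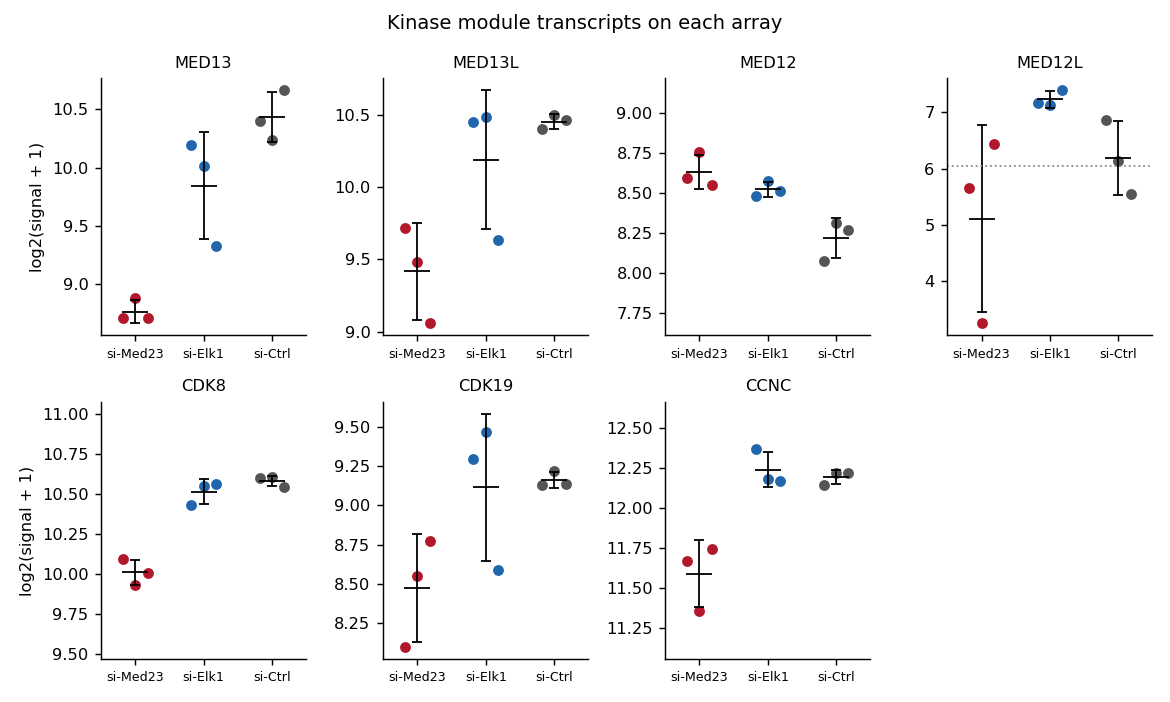
Log2(signal + 1) of the 7 kinase module genes on each array, with si-Med23, si-Elk1 and si-Ctrl from left to right, points for arrays, bars for the mean ± SD (n = 3) and a dotted line at the brightness filter of 6.05 where it falls in range. MED13, MED13L, CDK8, CDK19 and CCNC lie below all controls in si-Med23, and si-Elk1 oligo C lies below the other si-Elk1 arrays for MED13, MED13L and CDK19.

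The ratio of paralogs within an array does not depend on how the array was scaled. The log2 ratio of MED13 to MED13L was -1.01, -0.60 and -0.35 with si-Med23 oligos A, B and C, against 0.0043, -0.26 and 0.20 in si-Ctrl. The groups did not overlap, and the difference was -0.63, so MED13 was the lower of the pair relative to the controls on all 3 knockdown arrays. An exact two-sided permutation test gave p = 0.1, the smallest that 3 against 3 arrays allow, and 0.45 after adjustment over 9 such tests. In si-Elk1 this log2 ratio was -0.26, -0.47 and -0.31, overlapping both si-Med23 and si-Ctrl (exact p = 0.2 in each comparison). For CDK8 and CDK19 the difference of si-Med23 from si-Ctrl was 0.12 with overlapping groups (exact p = 0.9). For MED12 and MED12L it was 1.49, also with overlap (exact p = 0.3). From si-Elk1, si-Med23 differed by 2.23 in MED12 to dim MED12L, without overlap (exact p = 0.1, adjusted 0.45). The remaining comparisons with si-Elk1 overlapped.

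The promoters of CDK8 and CCNC are shown because these genes encode the kinase and the cyclin that work as a pair and were both lower. The sequences are the 250 bases before the RefSeq start on build GRCh38.p14, at chr13:26253879-26254128 on the + strand for CDK8 and chr6:99568815-99569064 on the - strand for CCNC, 5′ to 3′. Capitals mark GC boxes (GGGCGG, or CCGCCC on the opposite strand), of which CDK8 holds 1 and CCNC none in this window.
CDK8: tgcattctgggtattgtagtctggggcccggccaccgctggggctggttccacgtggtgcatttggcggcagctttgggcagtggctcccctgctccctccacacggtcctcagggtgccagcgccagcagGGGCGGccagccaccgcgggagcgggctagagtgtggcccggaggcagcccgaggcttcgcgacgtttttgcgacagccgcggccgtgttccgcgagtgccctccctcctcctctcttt
CCNC: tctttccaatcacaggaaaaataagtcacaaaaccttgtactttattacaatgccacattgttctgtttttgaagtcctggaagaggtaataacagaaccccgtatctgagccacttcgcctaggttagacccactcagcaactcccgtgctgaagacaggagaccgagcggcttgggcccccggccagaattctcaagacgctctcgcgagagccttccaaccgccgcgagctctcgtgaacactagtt
The GC box occurred in 14 of the 24 subunit promoters in the RefSeq table (58.3%) and in 44.6% of all 27305 promoters, each with 250 bases before and 50 after the start. The 27305 promoters were not limited to genes tested on the arrays, so the shares come from unlike sets. A match is a string of letters and not a measured binding site.

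Among head genes only MED18 passed with the chosen probe sets. MED18, which with MED20 forms the movable jaw of the head, gave 8.94, 8.96 and 8.98 in si-Med23, against 7.89, 8.16 and 7.87 in si-Ctrl. The 3 oligos gave nearly the same value, well above all controls, with a log2 fold change of 0.99 ± 0.16 (limma adjusted p = 0.00305), or 1.98 times the control signal. The call held without any single array, and MED18 was the only subunit still higher with hybridization control scaling, while with poly-A spike scaling it was lower (-0.62). No other MED18 probe set lay above the filter. With the dim probe set averaged in, MED18 did not pass (adjusted p = 0.0637), and without _x_at and _s_at probe sets it was too dim to be tested.

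In their chosen probe sets the other 5 head genes overlapped their controls. MED17, the scaffold of the head, gave 10.45, 10.41 and 10.61 in si-Med23, against 10.55, 10.33 and 10.55 in si-Ctrl, a difference of 0.016 ± 0.15. MED8, which tethers the jaw to the head, differed by 0.30 ± 0.19 (limma adjusted p = 0.237). The 2 other MED8 probe sets above the filter were both higher without overlap, at 0.43 and 0.61. MED8 was called without _x_at and _s_at probe sets. MED11 and MED22, which pair with each other, differed by 0.072 ± 0.13 and 0.13 ± 0.16, and MED20 by 0.062 ± 0.14. The head median was 0.10, beside 0.091 for all genes.

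Middle genes divided, with 3 higher, 4 lower and 2 not passed out of 9, and a median of -0.0058. MED1, the subunit that nuclear receptors bind, gave 10.79, 10.65 and 10.63 in si-Med23, against 11.31, 11.64 and 11.54 in si-Ctrl. All knockdown arrays were lower, with a log2 fold change of -0.80 ± 0.22 (limma adjusted p = 0.0195), and the other 3 MED1 probe sets were lower without overlap too, at -0.81 to -0.46. MED4, a core subunit of the middle, gave 9.89, 9.80 and 9.77, against 10.44, 10.40 and 10.50 in si-Ctrl. The groups were tight and separate, at -0.62 ± 0.13 (adjusted p = 0.00685), and this call held without any single array and under all 4 scalings.

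MED7 and MED21 form the hinge of the middle module and both fell. MED7 gave 10.63, 10.31 and 10.32 in si-Med23, against 11.08, 10.91 and 11.02 in si-Ctrl, a log2 fold change of -0.58 ± 0.16 (limma adjusted p = 0.0204). MED21 gave 10.70, 10.81 and 10.77, against 11.21, 11.09 and 11.28 in si-Ctrl, at -0.44 ± 0.11 (adjusted p = 0.0178). Neither gene had an array that reached its controls. After median centring MED1, MED7 and MED21 were no longer called.

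The 3 middle genes that rose were MED9, MED10 and MED19. MED9, which pairs with MED4 in yeast, gave 8.68, 8.80 and 8.74 in si-Med23, against 8.29, 8.19 and 8.27 in si-Ctrl. The groups were well separated, at 0.49 ± 0.12 (limma adjusted p = 0.0143). MED10 gave 10.72, 10.80 and 10.59, against 10.36, 10.00 and 10.13 in si-Ctrl, with a log2 fold change of 0.54 ± 0.18 that passed narrowly (adjusted p = 0.0447). MED19, which with MED26 lies at the hook end of the middle, gave 11.64, 11.79 and 11.46, against 11.19, 11.25 and 11.08 in si-Ctrl, at 0.46 ± 0.14 (adjusted p = 0.030). With hybridization control scaling MED9 and MED19 had -0.0089 and -0.037, and with poly-A spike scaling all 3 were lower.

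MED26, which brings elongation factors to Mediator, spread widely at 9.79, 9.18 and 10.26 in si-Med23, against 9.35, 10.03 and 9.28 in si-Ctrl (0.19 ± 0.30). MED31 gave 12.39, 12.44 and 12.00, against 12.28, 12.22 and 12.34, and did not pass, at -0.0058 ± 0.14. Its 2 other probe sets above the filter had -1.26 and -0.098, 1 of them without overlap. MED31 was called with its probe sets averaged and without _x_at and _s_at probe sets. Backbone gene MED14 gave 10.19, 10.35 and 9.67 in si-Med23, against 10.78, 10.62 and 10.68 in si-Ctrl. All knockdown arrays lay below the controls, with oligo C far below the others, and its log2 fold change of -0.62 ± 0.27 did not pass (limma adjusted p = 0.101). Among the middle genes the calls of MED1, MED7, MED10, MED19 and MED21 were lost without 3 to 7 of the arrays, each of them without si-Ctrl replicate 3, at adjusted p-values up to 0.131. Without si-Elk1 oligo C, whose spread enters the shared estimate of error, MED14, CDK19 and MED27 passed, at adjusted p = 0.0247, 0.0153 and 0.0309, and 46.6% of all genes were called.

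Set out by module on each array, the contrast between tail and kinase genes appeared with every si-Med23 oligo. The median deviation of the 6 tail genes from their si-Ctrl mean was 0.45, 0.48 and 0.49 with oligos A, B and C. That of the 7 kinase module genes was -0.53, -0.84 and -0.45 on the same arrays. The control arrays lay between -0.11 and 0.11 for both, near 0 by construction. The gap between tail and kinase medians, in which a single scaling factor per array cancels, was 0.98, 1.31 and 0.94 in si-Med23, -0.18, -0.15 and 0.25 in si-Elk1 and 0.14, -0.035 and -0.12 in si-Ctrl. All 3 si-Med23 arrays lay above all the others, and the gap is a description, with no test. The head differed from the kinase module by 0.71, 0.95 and 0.59 on the si-Med23 arrays and by at most 0.22 on any other array.

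**Figure D4:**
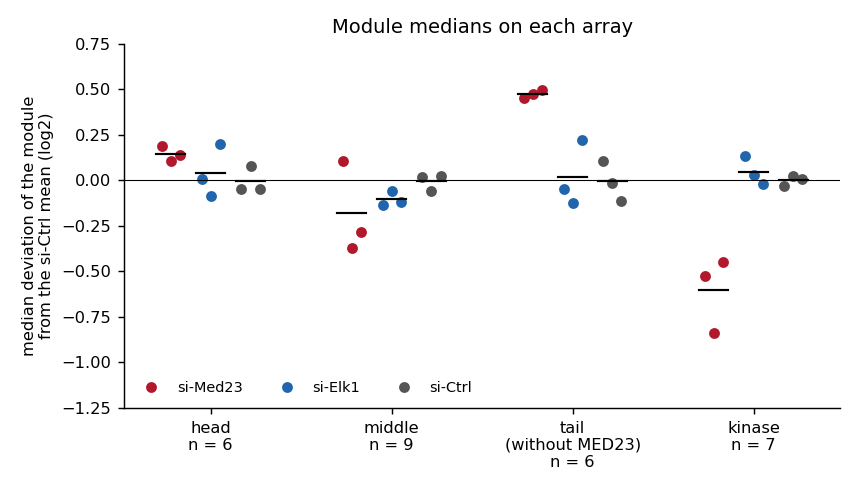
Median deviation of each module's genes from their si-Ctrl mean (log2) on each array, for si-Med23, si-Elk1 and si-Ctrl from left to right within a module, with a line at the group mean and the deposited scaling. Tail genes without MED23 lie at 0.45 to 0.49 and kinase module genes at -0.84 to -0.45 on the si-Med23 arrays, a gap of 0.94 to 1.31 that no single factor per array alters, although the tail values themselves turn negative with the control probe set scalings.

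**Figure D5:**
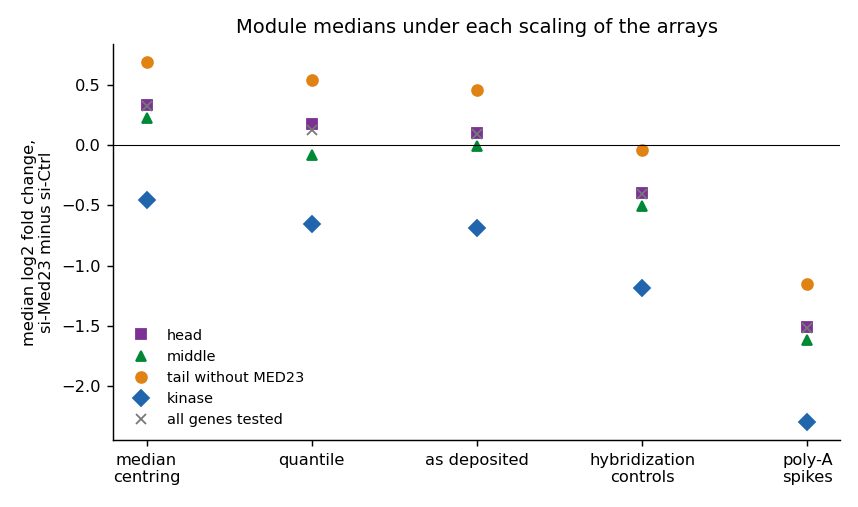
Median log2 fold change of each module in si-Med23 minus si-Ctrl under 5 scalings of the arrays, with the median of all 12616 genes tested as crosses. The kinase module lies at -0.69 as deposited and below 0 throughout, and the tail without MED23 moves between 0.69 and -1.15, the highest of the modules shown. Median centring and the control probe set scalings shift every gene alike, so only quantile normalization could alter this order.

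The comparison of si-Elk1 with si-Ctrl asks the same of an ETS factor that works through MED23. Only 1 of 30 subunit genes passed (3.33%), in a comparison that called 4.26% of all genes, and it was lower, as were 1.19% of all genes, while 3.07% of all genes and no subunit gene were higher. The median log2 fold change was -0.030, beside 0.053 for all genes. The arrays did not overlap for 9 of the 30 genes, where 36.3% of all genes were without overlap. Of these 9, MED11, MED12 and MED12L were higher and MED4, MED7, MED13, MED17, MED21 and MED23 lower, against 21.1% and 15.1% of all genes. At an unadjusted p under 0.05 stood 5 subunit genes, against 25.1% of all genes. Without oligo C limma called 0 subunit genes and 2.10% of all genes, and the median was -0.075. In that limma fit 6 subunit genes had an unadjusted p under 0.05, beside 2578 of all 12616 genes.

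MED21 was the gene called. It gave 10.72, 10.73 and 10.51 with si-Elk1 oligos A, B and C, against 11.21, 11.09 and 11.28 in si-Ctrl, with a log2 fold change of -0.54 ± 0.11 (limma adjusted p = 0.0395). All si-Elk1 arrays lay below all controls, and so did those of a second MED21 probe set, at -0.44. The call was nevertheless lost whichever of the 9 arrays was left out, at adjusted p = 0.0522 to 0.135, and without oligo C the value was -0.47. MED7, its hinge partner, gave 10.45, 10.76 and 10.25, against 11.08, 10.91 and 11.02 in si-Ctrl, a value of -0.51 ± 0.16 that did not pass (adjusted p = 0.0967) and that was -0.40 without oligo C.

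MED17 gave 10.00, 10.24 and 9.78 in si-Elk1, against 10.55, 10.33 and 10.55 in si-Ctrl. The groups did not overlap, but the log2 fold change of -0.47 ± 0.15 did not pass (limma adjusted p = 0.0981), and it was -0.36 without oligo C. The 2 other MED17 probe sets above the filter had -0.13 and 1.09. MED13 gave 10.19, 10.02 and 9.33, against 10.40, 10.23 and 10.66, at -0.59 ± 0.22 (adjusted p = 0.151), and at -0.33 without oligo C. MED23 itself gave 8.87, 9.02 and 8.18, against 9.27, 9.05 and 9.08, at -0.44 ± 0.27 (adjusted p = 0.325), and at -0.19 without oligo C. For both MED13 and MED23 oligo C was the lowest array by a wide margin. MED12 was the reverse case, at 8.48, 8.57 and 8.51 in si-Elk1, against 8.08, 8.31 and 8.27 in si-Ctrl, higher on every array but not passed (0.30 ± 0.12, adjusted p = 0.152, and 0.31 without oligo C).

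By module, the si-Elk1 medians were 0.019 for the head, -0.18 for the middle, -0.0041 for the tail and -0.048 for the kinase module, and without oligo C they were -0.065, -0.092, -0.082 and 0.078. CDK8, at 10.43, 10.55 and 10.56 in si-Elk1 against 10.60, 10.60 and 10.55 in si-Ctrl, and CCNC, at 12.36, 12.18 and 12.17 against 12.14, 12.22 and 12.22, overlapped their controls, and their log2 fold changes without oligo C were -0.091 and 0.078. MED12L gave 7.17, 7.13 and 7.40, above all 3 controls, at 1.04 ± 0.71 (limma adjusted p = 0.375), and at 0.96 without oligo C. With poly-A spike scaling 20 of the 30 genes were lower in si-Elk1, among 39.6% of all genes called.

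Since ELK1 binds ETS elements, the promoters of the subunit genes were searched for CCGGAAGT or its opposite strand ACTTCCGG. Promoters of 24 of the 31 measured genes were searched, all but those of MED8, MED13, MED14, MED21, MED22, MED28 and MED30, and 6 of the 24 contained the letters (25.0%), against 4.44% of all 27305 promoters. The 6 belong to the head (MED11, MED17 and MED18), the middle (MED7) and the tail (MED15 and MED29), and none to the kinase module. Each is shown as 30 bases on the strand of the gene, 5′ to 3′ on build GRCh38.p14, with the match in capitals. Their places are chr17:4731417-4731446 (+) for MED11, chr11:93784196-93784225 (+) for MED17, chr1:28329008-28329037 (+) for MED18, chr5:157142861-157142890 (-) for MED7, chr22:20507551-20507580 (+) for MED15 and chr19:39391387-39391416 (+) for MED29.
MED11: caccgagagccACTTCCGGaacaagcgtcg
MED17: ctcttataggcCCGGAAGTttaccccaccc
MED18: tcggcttccgaCCGGAAGTgagaagaggag
MED7: cccggaggagaCCGGAAGTtggtttcggct
MED15: agccctccttcACTTCCGGctcggccgagg
MED29: agtcgtaacgcACTTCCGGcggtctacgcg
In MED7 and MED18 the match begins 14 and 21 bases before the start, in MED15 and MED17 48 and 75 bases before it, in MED11 at the start itself and in MED29 20 bases after it.

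None of these 6 genes was called in si-Elk1, and the promoter of MED21, which was, was not among those searched. MED7 and MED17 had the values given above, -0.51 and -0.47, and the other MED17 probe sets had -0.13 and 1.09. MED18 gave 8.07, 7.88 and 8.42 in si-Elk1, against 7.89, 8.16 and 7.87 in si-Ctrl, overlapping at 0.15 ± 0.16, and at 0.0039 without oligo C. MED11 gave 11.47, 11.39 and 11.78, against 11.27, 11.36 and 11.34, above its controls at 0.23 ± 0.13 (limma adjusted p = 0.294), and at 0.11 without oligo C. MED15 and MED29 overlapped, at -0.0041 ± 0.15 and -0.0070 ± 0.13, and without oligo C they were at -0.082 and -0.035. The letters AAGATGGC (GCCATCTT on the opposite strand), those of the YY1 element, occurred in 4 of the 24 promoters (16.7%), against 3.03% of all promoters, in MED1, MED16, MED18 and MED29.

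MED18, the head gene that rose in si-Med23, carries both kinds of letters. So does MED29, which did not pass in any comparison. The 250 bases before the start of MED18 lie at chr1:28328790-28329039 (+), with the ETS match in capitals.
MED18: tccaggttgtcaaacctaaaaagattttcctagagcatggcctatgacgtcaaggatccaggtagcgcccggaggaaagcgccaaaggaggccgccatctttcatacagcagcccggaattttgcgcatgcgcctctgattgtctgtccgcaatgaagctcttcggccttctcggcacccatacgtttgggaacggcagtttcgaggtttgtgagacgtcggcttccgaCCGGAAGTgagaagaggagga
The search covered only these windows, and a match or its absence says nothing of what bound there in these cells.

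The knockdowns were also set against each other, which tests whether a subunit responded more to one than to the other. In si-Med23 against si-Elk1, 13 of 30 subunit genes passed (43.3%), where 21.7% of all genes did. The 8 that were higher in si-Med23 were MED17, MED18, MED9, MED10, MED15, MED16, MED28 and MED30, or 26.7% of the subunit genes against 9.54% of all genes, and the 5 that were lower were MED4, MED23, MED13, CDK8 and CCNC, or 16.7% against 12.2%. The arrays did not overlap for 16 of the 30, against 38.0% of all genes, with 10 higher and 6 lower, against 18.5% and 19.5% of all genes. Without the targeted MED23, 12 of 29 passed (41.4%), 8 higher (27.6%) and 4 lower (13.8%, against 12.2% of all genes), and 15 were without overlap. Without si-Elk1 oligo C, 17 passed, 9 higher and 8 lower, among 35.6% of all genes, with CDK19, MED1, MED13L, MED19 and MED27 added and MED17 lost. Without oligo A or without oligo B only 3 passed in each case, among 6.10% and 7.10% of all genes. This comparison shares the si-Med23 arrays with that against si-Ctrl.

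Largest of these differences, after MED23 itself at -2.01 ± 0.27 (limma adjusted p = 0.00531), among the genes called was MED13 at -1.08 ± 0.22 (adjusted p = 0.0156), and at -1.34 without si-Elk1 oligo C. CCNC differed by -0.65 ± 0.13 (adjusted p = 0.0153) and CDK8 by -0.50 ± 0.10 (adjusted p = 0.0156), with no overlap between the knockdowns. MED30 was higher by 0.95 ± 0.21 (adjusted p = 0.0182), MED18 by 0.84 ± 0.16 (adjusted p = 0.0115), MED10 by 0.80 ± 0.18 (adjusted p = 0.0214) and MED16 by 0.78 ± 0.15 (adjusted p = 0.0135). Without oligo C these differences were -2.27 for MED23, -0.68 for CCNC, -0.48 for CDK8, 1.17 for MED30, 0.98 for MED18, 0.99 for MED10 and 0.92 for MED16. MED17 was higher by 0.48 ± 0.15 (adjusted p = 0.0471), and by 0.37 without oligo C, with its si-Med23 arrays at the level of the controls. The 2 other MED17 probe sets above the filter had -1.21 and 0.081. MED21 did not differ between the knockdowns beyond its spread, at 0.11 ± 0.11 (adjusted p = 0.516), and at 0.036 without oligo C.

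The calls for MED18 and MED23 stayed whichever array was left out, and of this pair only MED23 also kept its call under all 4 scalings. MED13 and MED16 lost theirs without si-Elk1 oligo A and without oligo B, CDK8 without oligo B and CCNC without oligo A, at adjusted p-values up to 0.0607. The other 7 genes lost theirs without 3 or more of the arrays. Tail genes without MED23 had a median of 0.44 and kinase module genes one of -0.65, with 0.25 for the head and 0.072 for the middle, beside -0.026 for all genes. With poly-A spike scaling every one of these medians was negative, at -0.53 for the tail and -1.62 for the kinase module.

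Genes whose products work with Mediator were counted from a pair of lists. Of 28 transcription factors that bind a Mediator subunit, 27 were tested, and in si-Med23 against si-Ctrl 9 rose (33.3%, against 20.3% of all genes) and 6 fell (22.2%, against 19.5%), with a median of 0.14, beside 0.091 for all genes. CTNNB1, which encodes beta-catenin and binds MED12, rose by 1.07 ± 0.11 (limma adjusted p = 0.00184), and was lower with poly-A spike scaling. ELK4, an ETS factor of the ELK1 family, fell by 1.67 ± 0.32 (adjusted p = 0.00544), the repressor gene REST by 1.59 ± 0.30 (adjusted p = 0.00558) and NFE2L2, the NRF2 gene, by 1.29 ± 0.25 (adjusted p = 0.00582). The number that rose was 4, 3 and 2 without si-Ctrl replicates 1, 2 and 3, and 5 and 4 without si-Med23 oligos B and C. In these fits 1749, 1923, 1500, 1809 and 1940 of all genes rose, against 2561 with every array. ELK1 itself gave a log2 fold change of 0.54 in si-Med23 that did not pass, and -2.07 ± 0.26 in si-Elk1 (adjusted p = 0.00684), where it was the only factor called (3.70% of the list, against 4.26% of all genes).

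Of 25 elongation factors and cohesin genes, whose products act at promoters with Mediator, 24 were tested, and 4 rose (16.7%, against 20.3% of all genes) and 11 fell (45.8%, against 19.5%) in si-Med23 against si-Ctrl, with a median of -0.45. CCNT2, a cyclin of the elongation kinase P-TEFb, fell by 2.14 ± 0.25 (limma adjusted p = 0.00184), while CDK9, the kinase itself, rose by 1.09 ± 0.14 (adjusted p = 0.00202) and was lower with poly-A spike scaling. The cohesin gene RAD21 fell by 1.16 ± 0.17 (adjusted p = 0.00254), and SMC3, another cohesin gene, fell by 2.16 ± 0.40 (adjusted p = 0.00519). The number that fell was 7 without si-Ctrl replicate 1 or 3 or without si-Med23 oligo A or B, and the number that rose was 2 without any of the si-Ctrl replicates or without oligo A or B. In those fits 1674 to 2053 of all genes fell and 1500 to 2024 rose, against 2462 and 2561 with every array. In si-Elk1 against si-Ctrl limma called 0 of the 24, against 4.26% of all genes, with 3 at an unadjusted p under 0.05, against 25.1% of all genes. With a gene's probe sets averaged in place of the brightest taken alone, CDK9 was at 0.15, REST at -0.42 and ELK4 at -0.58 in si-Med23 against si-Ctrl, and none of the 3 passed. In si-Med23 against si-Elk1, 7 factors were higher (25.9%, against 9.54% of all genes) and 6 lower (22.2%, against 12.2%). The 7 include ELK1, the gene targeted in si-Elk1. Of the elongation and cohesin genes 2 were higher and 2 lower, or 16.7% called, against 21.7% of all genes. Among the factors, ELK1 differed by 2.61 ± 0.26 and CTNNB1 by 0.90 ± 0.11 (limma adjusted p = 0.00267 and 0.0048). Among the elongation and cohesin genes, SUPT5H differed by 0.79 ± 0.12 and CCNT2 by -1.58 ± 0.25 (limma adjusted p = 0.00705 and 0.00775).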

How the data were processed

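Total RNA from 9 samples (3 groups of 3) was measured on Affymetrix arrays with 54675 probe sets, of which 62 are controls. As deposited, each value is the linear intensity of a probe set. RMA and MAS5 appear in the submitters' processing notes, without role or version. The genome build of the annotation was not given in the sources used here. The 2% trimmed mean was 500.1 on every array and median signals ranged from 64.9 to 88.2.

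Groups and replicate numbers came from the labels. Signals were taken as log2(value + 1) with no further scaling. Probe sets named by exactly 1 symbol (41091 of 42898 listed, with 1801 naming several) gave 1 probe set per gene, that with the highest mean. Genes with a mean of at least log2 6.05 (a signal of 65.4), 12616 in all, entered 1 two-sided model of the 9 arrays without a block (lmFit, then eBayes, from limma 3.58.1 under R 4.3.3). Benjamini-Hochberg adjustment ran over the 12616 genes, with a threshold of 0.05. Paralog ratios were tested with 9 exact permutation tests, adjusted together. All subunits were named, with the partner genes of smallest p among those that passed. The fit was tested on simulated data.

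The members and gene lists were chosen with earlier results of these data known. Alternatives covered the filter, the probe set, the scaling, the pseudocount, the samples fitted, a replicate block, the module assignment and leaving out each array. Running them on the partner lists, and the module medians under each scaling, were added after seeing the data. Promoters came from RefSeq (GRCh38.p14). MED6 and MED25 were not analysed here.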

Additional observations from a re-analysis of the deposited data

How the results depend on the processing

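Where values below differ from those above, the cause was not tested unless more genes or fewer arrays entered the fit. In si-Med23 against si-Ctrl, 9 subunit genes were called with no filter (3 higher), where more genes share the adjustment and 18.4% of all genes were called. With the mean of all probe sets 12 were called, 3 of them higher, among 33.3% of all genes. Leaving out 1 array gave 10 to 21 calls, 4 to 10 of them higher and 6 to 11 lower, in fits that called 25.2% to 46.6% of all genes. With hybridization control scaling 1 gene was higher and 14 lower, where 44.5% of all genes were called, 409 higher and 5205 lower. The log2 fold change then turned to -0.43 for MED11, -0.44 for MED20, -0.0089 for MED9, -0.037 for MED19, -0.090 for MED28 and -0.083 for MED12. With poly-A spike scaling all 30 genes were called, 0 higher and 30 lower, where 94.3% of all genes were called, 18 higher and 11880 lower. The log2 fold change turned to -1.31 for MED8, -1.54 for MED11, -1.59 for MED17, -0.62 for MED18, -1.55 for MED20, -1.48 for MED22, -1.12 for MED9, -1.07 for MED10, -1.15 for MED19, -1.42 for MED26, -1.10 for MED15, -0.78 for MED16, -1.21 for MED27, -1.20 for MED28, -1.28 for MED29, -0.84 for MED30, -1.20 for MED12, -1.07 for ELK1, -0.54 for CTNNB1 and -0.52 for CDK9. In si-Elk1 against si-Ctrl, 0 genes were called or lower with no filter, with probe sets averaged, without _x_at and _s_at probe sets, with only the 6 arrays compared and in every fit that left out 1 array (0 to 0), against 5 at an unadjusted p under 0.05 in the limma fit of all arrays. Those fits with 0 calls called 0.602% to 3.95% of all genes, and 25.1% of all genes had an unadjusted p under 0.05 in the limma fit of all arrays. With signals raised to the filter level 2 were called, 1 of them higher, among 6.78% of all genes. With poly-A spike scaling 20 were called, all 20 lower, among 39.6% of all genes, and the log2 fold change turned to -0.63 for MED19, -0.59 for MED16, -0.60 for MED27 and -0.60 for MED28. In si-Med23 against si-Elk1, 5 genes were called with no filter (2 higher, 3 lower), 6 with the mean of all probe sets (2 higher), 6 without _x_at and _s_at probe sets (2 higher) and 5 with only the 6 arrays compared (3 higher, 2 lower). In the same order, 4.95%, 16.1%, 20.0% and 8.51% of all genes were called. Median centring gave 16 higher and 2 lower, where 41.5% of all genes were called, 4685 higher and 553 lower. Hybridization control scaling gave 2 higher and 10 lower, where 34.1% of all genes were called, 359 higher and 3943 lower. Leaving out 1 array gave 3 to 17 calls, 1 to 9 of them higher and 2 to 8 lower, in fits that called 6.10% to 35.6% of all genes. With the mean of all probe sets the log2 fold change turned to -0.22 for MED17, -0.068 for MED28, 0.040 for CCNC and -0.14 for CDK9. With poly-A spike scaling 23 were called, 0 higher and 23 lower, where 81.3% of all genes were called, 33 higher and 10219 lower. The log2 fold change turned to -0.66 for MED8, -0.49 for MED17, -0.13 for MED18, -0.96 for MED20, -0.79 for MED22, -0.56 for MED9, -0.18 for MED10, -0.52 for MED19, -0.86 for MED21, -0.90 for MED31, -0.46 for MED15, -0.19 for MED16, -0.61 for MED27, -0.60 for MED28, -0.64 for MED29, -0.021 for MED30, -0.86 for MED12, -0.070 for CTNNB1, -0.31 for PPARG, -0.32 for SREBF1, -0.18 for SUPT5H and -0.14 for CDK9. With MED27 to MED30 counted in the head and MED14 in the middle, the medians in si-Med23 against si-Ctrl were 0.31 for the head, -0.22 for the middle and 0.51 for the tail, and that of the tail was 0.51 in si-Med23 against si-Elk1. That tail had only 3 tested genes, MED15, MED16 and the targeted MED23, which ranged from -2.46 to 0.83 against si-Ctrl. In the main assignment the tail with MED23 had a median of 0.41 over 7 genes. Deviations of same-numbered samples correlated between -0.18 and 0.046, and those of differently numbered samples between -0.057 and 0.12. With 3 arrays per group these values cannot settle whether same-numbered samples were paired. The replicate block gave 13 calls in si-Med23 against si-Ctrl (5 higher), 0 (0 lower) in si-Elk1 against si-Ctrl and 6 in si-Med23 against si-Elk1 (3 higher, 3 lower). It called 32.6%, 1.28% and 10.5% of all genes in these comparisons.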

Other observations

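MED26 has a dim probe set that moved more than the bright one. Below the brightness filter, it averaged 5.94 in si-Med23, 3.70 in si-Elk1 and 3.10 in si-Ctrl on the log2 scale, 2.84 higher in si-Med23 than in si-Ctrl, whereas the bright MED26 probe set differed by 0.19 ± 0.30. It was singled out after its values were seen.

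On the si-Elk1 oligo C array, 11 subunit genes had the lowest and 15 the highest of the 3 si-Elk1 values, and 4 lay between the others.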
